A study of Mus musculus with 21 samples.

Results

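The genes described are 33 mouse genes of glycolysis and of the response to low oxygen, chosen by symbol from a fixed list and found among the 31053 genes of a single-cell count table of the colon stroma. They comprise 16 enzymes from hexokinase to pyruvate kinase (with the regulator Pfkfb3), 4 enzymes of pyruvate and lactate handling, 4 glucose or monocarboxylate transporters, 4 genes of the hypoxia-inducible factor (HIF) system and 5 other hypoxia-responsive genes. All 33 were matched in the count table and in the gene annotation used for open chromatin. The rule names them by symbol and uses no measured value.

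The series concerned stromal cells of the mouse colon and the kinase Map3k2. Open chromatin had been mapped by ATAC-seq, in which a transposase cuts accessible DNA, in the sorted populations MRISC (the Map3k2-regulated intestinal stromal cells of the series title), CD34 SP, CD138 (labelled CD34-CD138+) and Myofibroblast. The mice were C57BL/6 males aged 12 weeks, and each population had 2 libraries. No treatment is labelled for them, and CD45, Epcam and CD31 negative, gp38 positive cells were gated, with further antibodies for each subset. Transcripts had been counted in 1 droplet library of gp38+CD90+ stromal cells from wild-type female C57BL/6 mice of 12 weeks given 2% dextran sulfate sodium (DSS), which damages the colon epithelium, at D3. How many mice stood behind a library is not stated. The populations and the single cells thus differed in sex and in treatment. No genotypes were compared, since the 12 bulk RNA samples were not analysed here.

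Glycolysis splits glucose into pyruvate in a fixed series of enzyme steps, and lactate dehydrogenase turns pyruvate into lactate, which leaves the cell through monocarboxylate transporters. When oxygen is low, the prolyl hydroxylases that mark HIF alpha subunits for destruction lose activity, and HIF then binds hypoxia response elements and raises many glycolytic genes and genes such as Vegfa and Bnip3. In stroma, glycolytic activity is known to be high in activated and contractile fibroblasts, and the colon has a steep natural oxygen gradient towards the lumen.

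Regulatory stretches are shown of 2 kinds, chosen after values were seen: the promoters of Ldha (lactate dehydrogenase A), Hk2 (hexokinase 2, the inducible first enzyme of the pathway), Pgk1 (phosphoglycerate kinase 1) and Bnip3 (a mitophagy receptor), for their matches to a hypoxia word, and 4 peaks of CD34 SP inside introns. The promoters are the 250 bases before the annotated start, written 5′ to 3′ on the strand of the gene from RefSeq (GRCm38.p6). Capitals mark ACGTG, the core of the hypoxia response element, read on either strand, so that it appears as ACGTG or CACGT, and the palindrome CACGTG holds both. The Ldha promoter is chr7:46845554-46845803 on the plus strand, Hk2 chr6:82774455-82774704 on the minus strand, Pgk1 chrX:106186850-106187099 on the plus strand and Bnip3 chr7:138909507-138909756 on the minus strand.
Ldha promoter: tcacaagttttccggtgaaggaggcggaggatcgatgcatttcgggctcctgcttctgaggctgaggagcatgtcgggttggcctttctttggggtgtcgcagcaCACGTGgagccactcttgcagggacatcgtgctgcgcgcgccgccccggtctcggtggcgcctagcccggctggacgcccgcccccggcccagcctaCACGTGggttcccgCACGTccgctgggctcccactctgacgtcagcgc
Hk2 promoter: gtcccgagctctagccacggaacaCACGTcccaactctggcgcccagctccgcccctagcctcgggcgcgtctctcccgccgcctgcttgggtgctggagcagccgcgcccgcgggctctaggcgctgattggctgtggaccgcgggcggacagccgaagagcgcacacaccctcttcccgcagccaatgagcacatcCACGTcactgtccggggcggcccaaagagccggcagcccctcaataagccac
Pgk1 promoter: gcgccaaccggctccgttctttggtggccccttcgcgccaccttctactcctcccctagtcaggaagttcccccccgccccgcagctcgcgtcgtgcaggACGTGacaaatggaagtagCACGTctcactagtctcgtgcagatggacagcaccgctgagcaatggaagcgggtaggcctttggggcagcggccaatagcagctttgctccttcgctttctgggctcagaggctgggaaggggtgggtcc
Bnip3 promoter: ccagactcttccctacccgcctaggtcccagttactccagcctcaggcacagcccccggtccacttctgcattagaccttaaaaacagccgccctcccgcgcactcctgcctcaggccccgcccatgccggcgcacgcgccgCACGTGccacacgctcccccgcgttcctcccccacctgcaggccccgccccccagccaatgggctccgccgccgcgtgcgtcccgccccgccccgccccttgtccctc

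Matches to ACGTG stood upstream of the start in all 4. The Ldha sequence held 5 matches, 145, 144, 48, 47 and 34 bases before the start, of which 4 form 2 copies of CACGTG. Hk2 held 2 matches, 226 and 52 bases before the start, and Pgk1 held 2, at 150 and 131 bases. Bnip3 held 1 copy of CACGTG, which counts as 2 overlapping matches, at 108 and 107 bases.

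The peaks are shown because Hk2, Ndrg1 (a stress-responsive gene named for its downregulation by N-myc) and Epas1 (HIF-2 alpha) had the most specific peaks of CD34 SP among the 33 genes. They are the best-scored specific peaks of CD34 SP outside exons at each gene, 2 for Hk2 and 1 each for the others, chosen after their values were seen. Their central 300 bases are written on the plus strand of mm10 in lower case, since neither ACGTG nor the AP-1 word TGANTCA occurs in them. The Hk2 peaks are chr6:82748478-82748777 and chr6:82746533-82746832, the Ndrg1 peak is chr15:66942338-66942637 and the Epas1 peak is chr17:86782078-86782377.
Hk2 intron peak A: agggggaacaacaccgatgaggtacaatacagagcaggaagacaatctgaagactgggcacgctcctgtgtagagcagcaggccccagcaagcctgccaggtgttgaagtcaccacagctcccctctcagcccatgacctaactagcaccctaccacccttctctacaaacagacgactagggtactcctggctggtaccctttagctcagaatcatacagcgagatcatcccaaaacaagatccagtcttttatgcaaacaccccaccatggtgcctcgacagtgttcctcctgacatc
Hk2 intron peak B: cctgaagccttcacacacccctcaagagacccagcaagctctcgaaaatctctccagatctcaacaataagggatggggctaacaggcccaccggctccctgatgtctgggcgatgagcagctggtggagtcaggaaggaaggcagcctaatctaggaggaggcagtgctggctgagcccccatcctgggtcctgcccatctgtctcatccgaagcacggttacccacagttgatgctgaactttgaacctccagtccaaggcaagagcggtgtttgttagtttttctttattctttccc
Ndrg1 intron peak: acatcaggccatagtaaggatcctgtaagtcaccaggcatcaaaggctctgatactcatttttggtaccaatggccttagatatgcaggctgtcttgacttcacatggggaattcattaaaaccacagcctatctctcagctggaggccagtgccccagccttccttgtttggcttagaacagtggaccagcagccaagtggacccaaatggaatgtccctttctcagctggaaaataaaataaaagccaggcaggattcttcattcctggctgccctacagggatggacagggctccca
Epas1 intron peak: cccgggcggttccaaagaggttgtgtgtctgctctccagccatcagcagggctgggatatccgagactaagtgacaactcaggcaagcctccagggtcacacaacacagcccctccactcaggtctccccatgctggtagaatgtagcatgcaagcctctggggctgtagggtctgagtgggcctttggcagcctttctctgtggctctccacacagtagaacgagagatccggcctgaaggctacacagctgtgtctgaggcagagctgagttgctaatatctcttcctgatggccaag

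By score, the Hk2 peaks ranked at percentiles 54.8 and 52.8 of the CD34 SP list, the Ndrg1 peak at 53.9 and the Epas1 peak at 65.9. Specific peaks of CD34 SP ranked low as a class, with a median percentile of 22.4 and 9.04% of 49629 above percentile 50.

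The single-cell library kept 11376 cells holding 72920197 UMIs. The median cell had 6052 UMIs from 2288 genes. Clustering gave 9 clusters, of which 8 with 11325 cells were stromal. They were lamina propria fibroblast-like (cluster 0, 2832 cells), inflamed fibroblast-like (cluster 1, 2000), clusters 2 and 3, which took no name (1963 and 1907), CD34+CD81+ fibroblast-like (cluster 4, 1351), smooth muscle or myofibroblast-like (cluster 5, 1142), mesothelium-like (cluster 6, 71) and crypt-top fibroblast-like (cluster 7, 59). The gp38 gene Pdpn ran from 116.2 to 481.2 CPM over the stromal clusters, the CD45 gene Ptprc was at most 0.302 CPM, Epcam at most 10.6 CPM and the CD31 gene Pecam1 at most 3.05 CPM. The CD90 gene Thy1 ran from 24.4 to 193.1 CPM, lowest in cluster 7. Cluster 3 held more free RNA than the other stromal clusters by the marker estimate, 39.9% of its UMIs against 3.64% to 10.8%. This estimate is loose, since over the stroma the 5 markers gave from 9.04% (Car1) to 67.3% (Lyz2). In the sorted populations the promoter of Pdpn was open in all 4, and those of Ptprc, Epcam and Pecam1, which the sort removed, also held a peak in 2, 4 and 4 of the 4 populations. Over the gene body with 10 kb on both sides, CD138 had 14 peaks at Ptprc, against 3 to 6 in the other populations. At Epcam, CD138 had 7, against 1 in each other. Pecam1 had 30 in CD138, 33 in MRISC, 24 in CD34 SP and 13 in Myofibroblast. The part of such cells in the CD138 peak counts was not tested. Cd34, Cd81, Sdc1, Acta2 and Myh11 were open at the promoter in all 4 populations and so did not tell them apart.

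Levels are pooled UMI counts scaled to the same total in each cluster (CPM, the UMIs of a gene in every 1000000 UMIs) of a cluster with an exact Poisson interval of 95% that covers counting error only. The chemistry counts 1 tag per molecule at the 3′ end, so CPM is not divided by gene length. It is relative to all RNA of a cell, so a higher CPM cannot be told apart from less of other RNA. Cells of 1 library are not replicates, and no test was made between clusters. Clusters were built from the same cells, so differences between them are descriptions.

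Stromal cells expressed every step of the pathway, and the sum over the 16 enzymes ran over a 1.66-fold range between clusters. Many single genes ranged more widely. Over the 6 clusters of at least 1000 cells, the highest level of Ddit4 was 13.3-fold above the lowest, that of Slc2a1 6.64-fold, Slc16a3 5.86-fold, Pfkl 3.87-fold, Hk2 3.70-fold, Epas1 3.49-fold and Ndrg1 2.67-fold. Gapdh (glyceraldehyde-3-phosphate dehydrogenase) was the most abundant of the 33 genes with 650.6 CPM (95% interval 644.7 to 656.5) over the stromal clusters. Ldha followed with 399.8 CPM, Aldoa (aldolase A) with 383.5 CPM and Pkm (pyruvate kinase) with 348 CPM. Tpi1 (triosephosphate isomerase) had 195.9 CPM, Eno1 (enolase 1) 150.5 CPM, Hk2 135.7 CPM, Pgam1 (phosphoglycerate mutase) 135.6 CPM and Gpi1 (glucose-6-phosphate isomerase) 133.1 CPM. Below these 9 genes, 10 lay between 20 and 100 CPM, 6 between 10 and 20 CPM and 8 under 10 CPM. The 8 lowest were Pfkfb3 (a maker of the phosphofructokinase activator), Aldoc, the pyruvate dehydrogenase kinases Pdk1 and Pdk4, the transporters Slc2a3 and Slc16a1, the prolyl hydroxylase Egln3 and Ankrd37. Aldoc, the brain aldolase, had 6 UMIs in all stromal cells. Empty droplets held the 33 genes at 0.694 to 657 CPM, so low levels in a cluster can be free RNA, and the retrogene copies Gm3839 and Gm10358 of Gapdh had 186 and 1 UMIs.

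The summed level of the 16 enzymes was 2182 CPM in cluster 0, 2796 CPM in cluster 1, 2331 CPM in cluster 2 and 1975 CPM in cluster 3. It was 1895 CPM in the CD34+CD81+ fibroblast-like cluster, 3073 CPM in the smooth muscle or myofibroblast-like cluster, 3040 CPM in the mesothelium-like cluster and 3146 CPM in the crypt-top fibroblast-like cluster. The contractile, mesothelium-like and crypt-top clusters were the highest, with overlapping intervals, and the CD34+CD81+ cluster was the lowest, although cluster 3 was lowest without Gapdh and with free RNA subtracted. The highest stood 1.66-fold (1.56 to 1.77) above the lowest. Nuclear genes of mitochondrial respiration, 20 in all, ran alongside from 3459 CPM in cluster 4 to 5481 CPM in cluster 5.

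**Figure D1:**
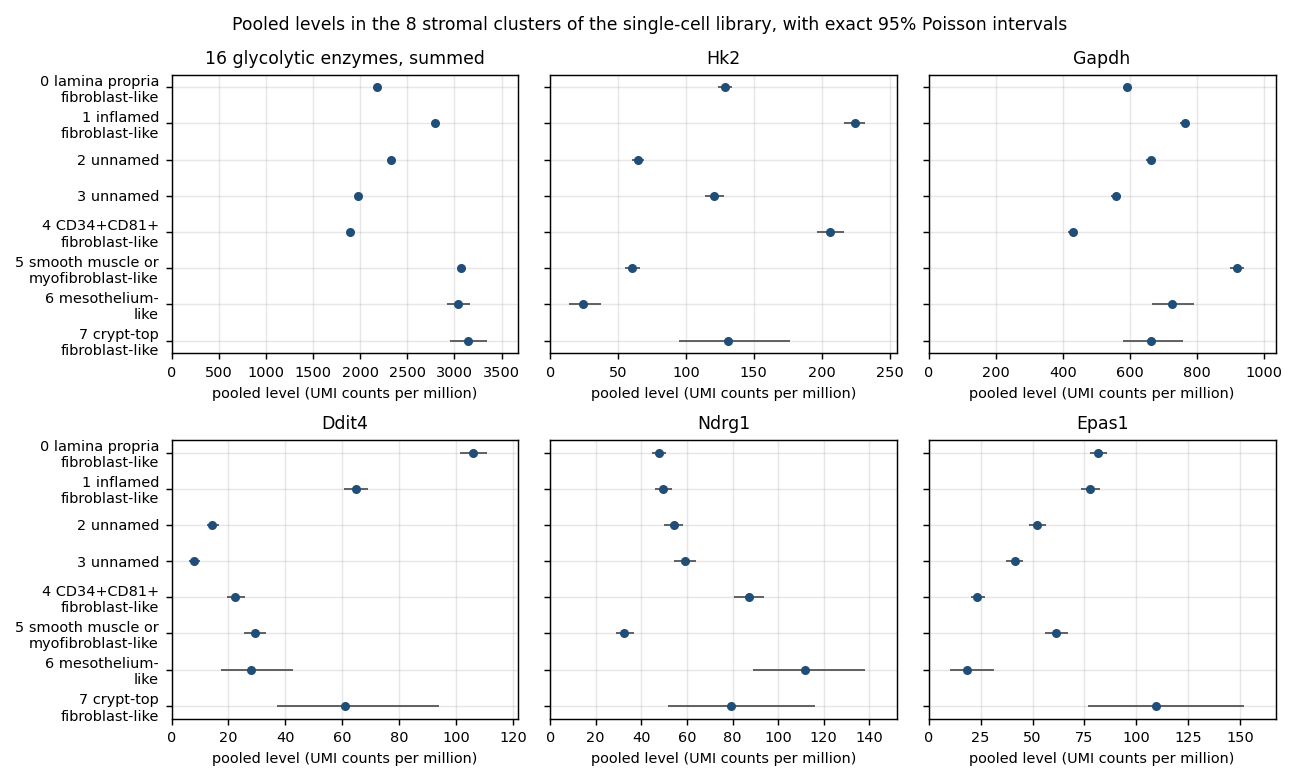
Pooled UMI levels in CPM (horizontal axis, linear from 0) of the 16 summed glycolytic enzymes, Hk2, Gapdh, Ddit4, Ndrg1 and Epas1 in each of the 8 stromal clusters (vertical axis). Points are pooled levels and bars exact 95% Poisson intervals. Hk2 peaks at 224.3 CPM in cluster 1 and 206.1 CPM in cluster 4, where the summed enzymes are lowest at 1895 CPM.

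Hk2 did not follow the sum of the other enzymes. It had 128.9 CPM in cluster 0, 224.3 CPM in cluster 1, 64.6 CPM in cluster 2, 120.8 CPM in cluster 3, 206.1 CPM in cluster 4, 60.6 CPM in cluster 5, 23.9 CPM in cluster 6 and 131 CPM in cluster 7. The inflamed and the CD34+CD81+ fibroblast-like clusters were highest, and the contractile and mesothelium-like clusters, which had some of the highest enzyme sums, were lowest. Over the 6 large clusters, a set chosen after values were seen, the Pearson correlation of Hk2 with the summed other enzymes was −0.48, against 0.80 to 0.99 for Hk1, Gpi1, Pfkl, Pfkp, Aldoa, Tpi1, Gapdh, Pgk1, Pgam1, Eno1 and Pkm. Over all 8 stromal clusters it was −0.53, against 0.45 for Hk1, 0.55 for Pgk1, 0.72 for Gapdh and 0.80 to 0.95 for the other 8. The points share 1 library, and the values are given as descriptions. Across 10605 single stromal cells thinned to 3000 UMIs, which left out 720, the correlation of Hk2 with the other enzymes was −0.005, and counts of Hk2 were then 0.382 UMIs per cell.

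Hk2 supplied most hexokinase transcripts, and this share was lowest in the contractile cluster. Of the UMIs of Hk2 and Hk1 (the housekeeping hexokinase), 80.1% (exact binomial interval 79.4% to 80.8%) were Hk2 over the stromal clusters. The share was 89.6% (88.1% to 90.9%) in the CD34+CD81+ cluster and 86.8% in the inflamed cluster, against 50.6% (47.3% to 53.8%) in the smooth muscle or myofibroblast-like cluster. Hk1 itself had 59.2 CPM there and 24.0 to 35.3 CPM in clusters 0 to 4. The 3 phosphofructokinase genes were shared more evenly, with Pfkp at 58.3% of their UMIs, from 53.9% in cluster 0 to 72.2% in cluster 4, where Pfkl had 10.5 CPM. Enolase was 93.4% Eno1, and aldolase was nearly all Aldoa, with Aldoa at 99.98%.

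Mesothelium-like cells had more Ldhb and Slc16a1, with Ldha still the main lactate dehydrogenase. Lactate dehydrogenase was 94.2% Ldha over the stromal clusters, but 71.0% (65.7% to 75.9%) in the mesothelium-like cluster, where Ldhb, the heart-type subunit, had 123.6 CPM against 19.9 to 33.5 CPM in the other stromal clusters. Slc16a1, the monocarboxylate transporter MCT1, had 146.2 CPM (110 UMIs in 71 cells) there and at most 11.4 CPM elsewhere in the stroma. Slc16a3, the lactate exporter MCT4, gave 70.9% of the UMIs of the 2 transporters over the stroma, but 4.35% (1.43% to 9.85%) in the mesothelium-like cluster and 26.8% (19.3% to 35.4%) in the CD34+CD81+ cluster. The mesothelium-like cells had a median of 10613 UMIs, against 5106 to 6661 in the other stromal clusters, and carried immune and epithelial marker transcripts at 549.1 CPM, against 42.6 to 279.2 CPM. Their part in these levels was not tested.

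The glucose transporter Slc2a1 (GLUT1) was highest in the contractile cluster with 28.8 CPM, against 4.33 to 10.3 CPM in the other stromal clusters. Slc2a3 (GLUT3) was at 1.57 to 6.65 CPM in all 8. Slc2a1 made up 81.004% of the UMIs of these 2 transporters.

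Of the HIF genes, Hif1a (HIF-1 alpha) and Epas1 had unlike patterns. Hif1a had 72.6 CPM in cluster 0, 110.7 CPM in cluster 1, 48.1 CPM in cluster 2, 43.2 CPM in cluster 3, 64.3 CPM in cluster 4, 113.6 CPM in cluster 5, 65.1 CPM in cluster 6 and 64.0 CPM in cluster 7. It was highest in the inflamed and contractile clusters, whose intervals overlap. Epas1 had 81.7, 77.7, 52.1, 41.3, 23.4, 61.5, 18.6 and 109.6 CPM in clusters 0 to 7 in that order. It was lowest in the mesothelium-like and CD34+CD81+ clusters and highest in the crypt-top cluster. That cluster had 59 cells and only 57 UMIs of Hif1a and Epas1 together, so its level is loose. Hif1a made up 55.2% of the UMIs of these 2 genes over the stroma and 73.3% (69.9% to 76.5%) in the CD34+CD81+ cluster. Egln1, the main HIF prolyl hydroxylase, ran from 11.6 CPM in cluster 0 to 23.9 CPM in the mesothelium-like cluster.

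Among the other hypoxia-responsive genes, Ddit4 (REDD1, an inhibitor of mTORC1 that glucocorticoids and stress also raise) had the widest range of the genes above 20 CPM. It had 106.1 CPM in cluster 0, 64.8 CPM in cluster 1, 14.3 CPM in cluster 2, 7.96 CPM in cluster 3, 22.5 CPM in cluster 4, 29.3 CPM in cluster 5, 27.9 CPM in cluster 6 and 60.9 CPM in cluster 7. The lamina propria fibroblast-like cluster stood 13.3-fold (10.6 to 16.9) above cluster 3. Ndrg1 had 47.8, 49.5, 54.1, 59.2, 87.0, 32.6, 111.7 and 79.2 CPM in clusters 0 to 7 in that order. It was highest in the mesothelium-like and CD34+CD81+ clusters and lowest in the contractile cluster. Bnip3 had 23.8 CPM in the CD34+CD81+ cluster and 61.4 CPM in the contractile cluster, its ends among the 8. Vegfa, the angiogenic growth factor, had 48.7 CPM in the crypt-top cluster, which has only 59 cells, and 3.99 to 20.5 CPM elsewhere. Ankrd37 reached 11.04 CPM in the contractile cluster.

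The first grouped comparison set the cluster with Cd34 and Cd81 above the mean of all cells, against the other stromal clusters. Hk2, Ndrg1 and Vegfa were higher in it, while Pfkl, Gapdh, Pkm, Epas1, Bnip3 and Ddit4 were lower. A gene was called when the pooled levels were at least 1.5-fold apart with at least 20 CPM in the higher group. Of 20 members that reached this level, 3 were called higher, beside 7.04% of the 6139 genes tested, and 6 were called lower, beside 12.5%. The median ratio was 0.74 over these members and 0.89 over all tested genes, and the whole enzyme sum was 0.778-fold (0.765 to 0.791), with 1895 CPM in the Cd34+Cd81+ cluster and 2436 CPM in the others.

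Hk2 had 206.1 CPM in the Cd34+Cd81+ cluster against 126.7 CPM in the others, a ratio of 1.63 (1.54 to 1.71). Ndrg1 had 87.0 CPM against 50.2 CPM, a ratio of 1.73 (1.60 to 1.88). Vegfa had 20.5 CPM against 13.6 CPM, a ratio of 1.51 (1.27 to 1.79), whose interval spans the threshold. Epas1 had 23.4 CPM in the Cd34+Cd81+ cluster and 65.9 CPM in the others, a ratio of 0.36, the lowest of the members. Pfkl had a ratio of 0.39, Ddit4 0.42, Pkm 0.57, Bnip3 0.58 and Gapdh 0.63. The uncalled 11 were mostly lower as well, with Hk1 at 0.69, Ldha at 0.70, Tpi1 and Pgam1 at 0.73, and only Ldhb near 1.

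These calls depended on how the cells were grouped. When cells with a Cd34 and a Cd81 UMI (2567) were set against cells with neither (2469), Ndrg1 was the only member called higher, beside 5.94% of genes, with a ratio of 1.76, while Hk2 had 1.12 and Vegfa 1.01. Among the genes called lower, Gapdh and Bnip3 then dropped out and Hif1a came in. Gapdh was no longer called relative to the median of all genes, where its ratio was 0.71. The Cd34+Cd81+ cluster also had the highest sum of 12 genes induced by tissue dissociation (immediate early and heat shock genes), 22475 CPM against 4158 to 17918 CPM in the other stromal clusters, and 8 of the 12 were called higher. Of 9 glucocorticoid-responsive genes, 3 of 8 tested were called higher, led by the metallothionein gene Mt1 with 3997 CPM against 1062 CPM. Their part in the levels of Hk2 and Ndrg1 was not tested.

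Other hypoxia-responsive genes that are no members went both ways in the same cluster. Of 16 tested, 4 were higher, among them Adm (adrenomedullin, 391.5 CPM in the Cd34+Cd81+ cluster against 128.6 CPM), Angptl4 (an inhibitor of lipoprotein lipase, 144.2 against 47.1 CPM) and Stc2 (stanniocalcin 2, 33.4 against 6.28 CPM). Mif (a cytokine) was lower with 152.2 CPM against 242.7 CPM, and 11 were not called. Of 6 further glycolysis genes tested none was called, and of 19 respiration genes only Idh3a was, with a ratio of 0.62.

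The second comparison set the clusters with high Sdc1, the CD138 gene, which were the lamina propria and inflamed fibroblast-like clusters with 4832 cells, against the other 6493 stromal cells. Sdc1 was at 242.6 CPM in the inflamed cluster but at 115.3 CPM in the lamina propria cluster, which holds 2832 of these cells, just above the mean of 104.2 CPM that set the limit. Ddit4, Epas1, Hk2 and Pfkl were higher in the Sdc1-high clusters and no member was lower. Of 19 members tested 4 were called higher, beside 4.64% of 6137 genes, and 0 were called lower, beside 3.72%. Ddit4 had 88.6 CPM in the Sdc1-high clusters and 18.0 CPM in the others, a ratio of 4.91 (4.52 to 5.34). Epas1 had 80.0 CPM against 45.1 CPM, a ratio of 1.78. Hk2 had 169.3 CPM against 107.4 CPM, a ratio of 1.58, and Pfkl 30.5 CPM against 20.1 CPM, a ratio of 1.52. The enzyme sum was nearly even, with 2442 CPM in the Sdc1-high clusters and 2318 CPM in the others, a ratio of 1.05.

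The Hk2 difference in this comparison rested on the clusters drawn. With clustering that left out the 33 genes, only the inflamed cluster counted as Sdc1-high, 7 members were called, beside 5.77% of all genes tested, and Hk2 had a ratio of 2.34. With each gene scaled before clustering, 2 were called, Ddit4 and Epas1, beside 4.76%, and Hk2 had 1.25. Of 15 other hypoxia-responsive genes tested, Lox (lysyl oxidase, a collagen crosslinker) alone was called, with 106.7 CPM in the Sdc1-high clusters against 41.6 CPM.

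The third comparison set the smooth muscle or myofibroblast-like cluster against the other stromal clusters. Contractile cells had more Slc2a1, Hk1, Pfkl, Bnip3, Pkm and Hif1a and less Hk2, Ddit4 and Ndrg1. Of 20 members tested, 6 were called higher, beside 13.4% of 6417 genes, and 3 lower, beside 11.6%. The median ratio was 1.31 over the members and 1.06 over all tested genes. The enzyme sum was 3073 CPM in the contractile cluster and 2290 CPM in the others, a ratio of 1.34 (1.32 to 1.36).

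Slc2a1 had 28.8 CPM in the contractile cluster against 8.04 CPM, a ratio of 3.58 (3.04 to 4.19). Hk1 had 59.2 CPM against 30.6 CPM, a ratio of 1.93 (1.74 to 2.14). Hk2 had 60.6 CPM against 144.8 CPM, a ratio of 0.42 (0.38 to 0.46). The hexokinases thus went opposite ways between the same cells. Pfkl had a ratio of 1.77, Bnip3 1.70, Pkm 1.61 and Hif1a 1.61. Ndrg1 had 32.6 CPM against 56.997 CPM, a ratio of 0.57, and Ddit4 had a ratio of 0.55. All 11 other tested members had ratios from 1.00 up to under the threshold, Gapdh the highest among them.

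Genes outside the 33 also differed in the contractile cluster. Slc2a4, the insulin-responsive transporter GLUT4 of muscle and fat, had 57.3 CPM there and 0.978 CPM in the others, a ratio of 58.5 (44.9 to 77.5). Slc16a7 (MCT2) had 30.2 CPM against 7.09 CPM, and Pdk3 and Mpc1 (a subunit of the mitochondrial pyruvate carrier) had ratios of 1.57 and 1.53, while Pgm2 (ENSMUSG00000025791, a phosphoglucomutase) had 0.59. These are 5 of 10 further glycolysis genes tested. Of 18 other hypoxia-responsive genes, 4 were higher, among them Higd1a, Fam162a and Kdm3a, and 3 were lower, namely Adm, Angptl4 and Ccng2, with Adm at 43.4 CPM against 172.4 CPM. Of 19 respiration genes, Idh3a, Cox6c, Ndufa4 and Ndufb8 were higher, with ratios of 2.88, 2.10, 1.62 and 1.61.

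**Figure D2:**
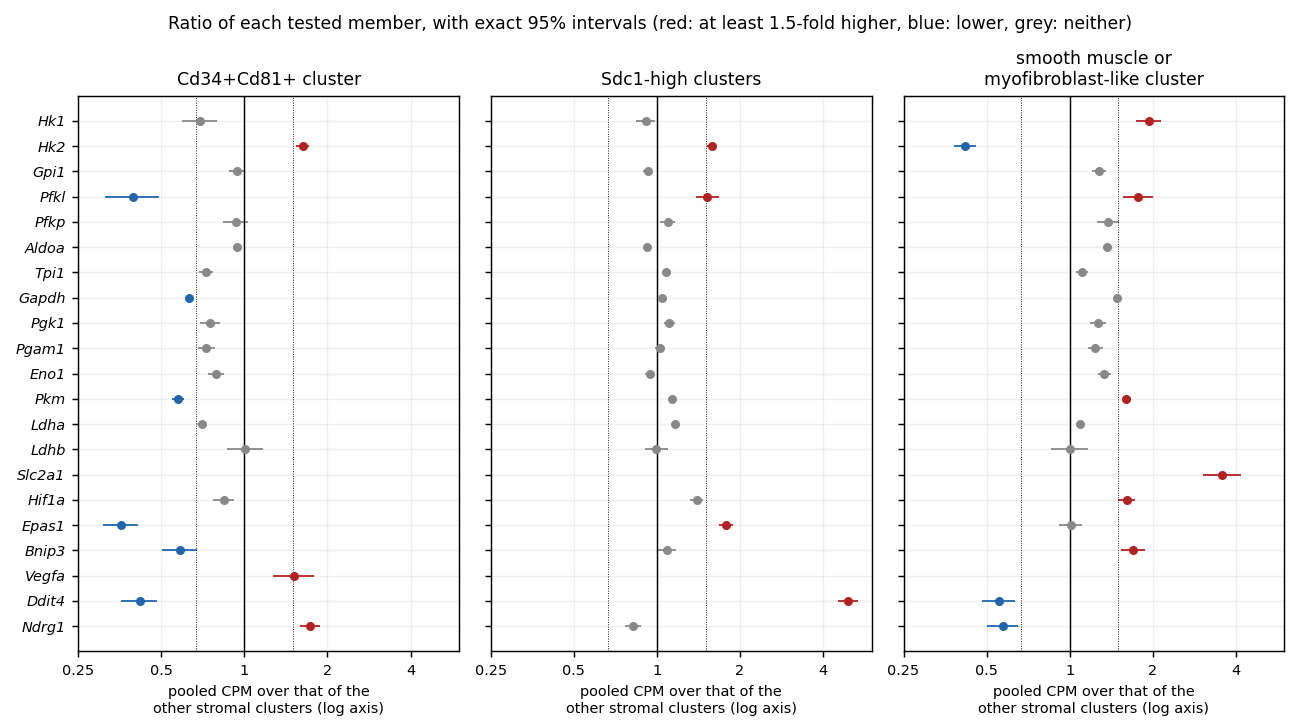
Pooled CPM of each tested member in the Cd34+Cd81+ cluster, the Sdc1-high clusters and the smooth muscle or myofibroblast-like cluster over that in the other stromal clusters (horizontal log axis), with exact 95% intervals. Dotted lines mark the 1.5-fold threshold, red points are called higher, blue lower. Hk2 is at 1.63, 1.58 and 0.42 in the 3 panels, while most enzymes lie below 1 in the first and above 1 in the last.

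In open chromatin, every one of the 33 genes had a peak within 1 kb of a transcription start in all 4 sorted populations, against 59.3% of 21911 protein-coding genes. The promoter peaks were among the strongest of their lists: outside Aldoc the lowest best promoter score of any gene and population was at percentile 80.4, for Vegfa, and Aldoc, which was almost without transcripts, had its promoter peak at percentiles from 54.98 in Myofibroblast to 83.2 in CD138. Promoter openness therefore did not separate the populations at any of these genes. The score percentiles were not set beside those of promoter peaks of all genes, so they are not shown to be particular to the members. Peaks were counted in the gene body with 10 kb on both sides. The 33 windows held 362 total peaks of CD34 SP, 331 of MRISC, 303 of CD138 and 281 of Myofibroblast. The median gene of the 33 had 7 total peaks of Myofibroblast and 8 of each other population, against 4 of CD34 SP and 5 of each other over all genes. Their median window of 39.8 kb was close to that of all genes, 37.4 kb.

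CD34 SP had the most specific peaks at the members, largely at 3 genes. Specific peaks are peaks the authors list for 1 population only. The members had 164 specific peaks of CD34 SP, 135 of MRISC, 124 of Myofibroblast and 103 of CD138. CD34 SP thus gave 31.2% of them, against 16.6% over all protein-coding genes, although its specific list was the shortest with 49629 peaks, while MRISC listed 82517, Myofibroblast 112847 and CD138 126535. Hk2, Epas1 and Ndrg1 together carried 84 of the 164, and without them, a count added after values were seen, CD34 SP gave 80 peaks, or 21.3%. The median member had 2 specific peaks of CD34 SP and 3 each of MRISC and Myofibroblast. Of 737 merged open regions at the members, 92 were open in all 4 populations, 165 in CD34 SP only, 136 in MRISC only, 124 in Myofibroblast only and 103 in CD138 only. Regions shared by MRISC and CD34 SP alone numbered 38, more than any other pair, with 10 of them at Hk2 and 6 at Ndrg1. Merged regions were not counted over all genes, so whether these numbers are particular to the members is unknown. Each population has 1 pooled list, which leaves no measure of the spread between its libraries, and the depth of sequencing behind a list is unknown.

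A gene was called for a population when it had at least 5 of its specific peaks and at least 2 times the mean of the other 3 populations. By this rule CD34 SP had 6 of the 33 genes, Hk2, Epas1, Ndrg1, Pkm, Ldha and Slc16a3, beside 3.39% of all genes. MRISC had 3, beside 5.58%, CD138 2, beside 10.5%, and Myofibroblast 3, beside 7.64%. Ldha and Slc16a3 passed with 6 specific peaks of CD34 SP each, near the minimum of 5, and 0 of these lay above score percentile 50. Whether the 6 genes share any regulation was not tested.

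Hk2 (ENSMUSG00000000628, chr6:82725025-82774454, minus strand, mm10) had 33 specific peaks of CD34 SP among 57 in total, 11 of 33 in MRISC, 1 of 17 in CD138 and 1 of 11 in Myofibroblast. CD34 SP peaks covered 33.5% of its window, MRISC peaks 22.9%, CD138 peaks 9.46% and Myofibroblast peaks 4.87%. Of the 33 specific peaks of CD34 SP, 21 lay in introns, 5 over exons, 5 downstream and 2 upstream of the gene. A further 10 of its 69 merged regions were shared by MRISC and CD34 SP alone, and 7 were open in all 4.

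**Figure D3:**
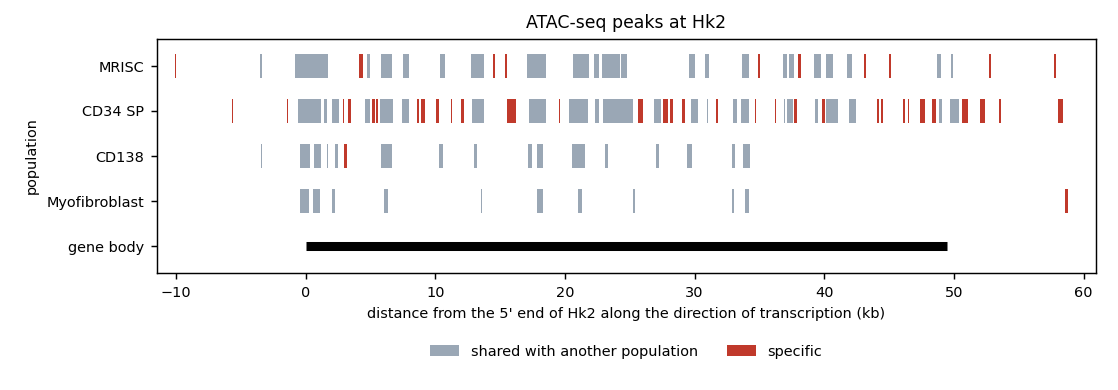
Peaks at Hk2 by distance from its 5′ end in kb along the direction of transcription (horizontal axis), with the 4 sorted populations as rows and the gene body as a black bar. Red blocks are specific peaks and grey blocks peaks shared with another population, drawn to scale. CD34 SP has 57 peaks spread over the whole window, 33 of them specific, while Myofibroblast has 11.

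Ndrg1 (chr15:66929318-66969640, minus strand) had 25 specific peaks of CD34 SP among 40 in total, 12 of 30 in MRISC, 4 of 17 in CD138 and 4 of 10 in Myofibroblast. Epas1 (chr17:86753700-86833410, plus strand) had 26 of 39 in CD34 SP, 9 of 21 in MRISC, 10 of 22 in CD138 and 14 of 23 in Myofibroblast. Of the 26, 23 lay in introns. In specific peaks, MRISC came next to CD34 SP at Hk2 and Ndrg1 but was lowest at Epas1. By share of the Epas1 window covered, MRISC came next to CD34 SP there too, with 7.70% against 15.9%. Pkm (chr9:59656368-59679375) had 9 specific peaks of CD34 SP and 2 or 3 of each other population, and Ldha (chr7:46841475-46855627) had 6 of CD34 SP and 1 to 3 of each other. Slc16a3 had 6 of CD34 SP, 5 of MRISC and 1 each of CD138 and Myofibroblast, so that MRISC and CD34 SP were close there.

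For MRISC the called genes were Slc2a1 with 11 specific peaks against 2, 4 and 5 in CD34 SP, CD138 and Myofibroblast, Aldoa with 5 against 1, 2 and 3, and Pfkm, the muscle phosphofructokinase, with 5 against 0, 1 and 4. For CD138 they were Gpi1 with 7 against 4, 1 and 2 in MRISC, CD34 SP and Myofibroblast, and Egln3 with 6 against 2, 3 and 4. For Myofibroblast they were Hk1 with 15 against 10, 4 and 7 in MRISC, CD34 SP and CD138, Slc2a3 with 8 against 1, 1 and 2, and Pdk1 with 6 against 1, 1 and 5. The other members had 0 to 12 specific peaks of any population, the most at Pfkfb3 with 12 each of CD138 and Myofibroblast.

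**Figure D4:**
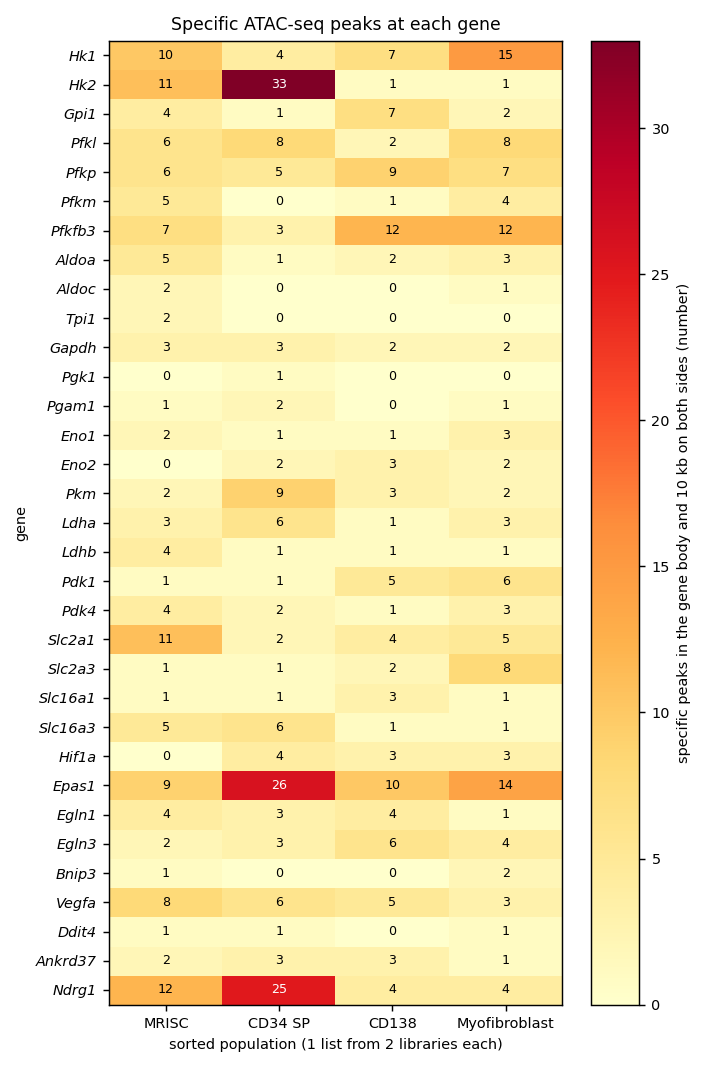
Number of specific peaks in the gene body with 10 kb on both sides for each of the 33 genes (rows) in MRISC, CD34 SP, CD138 and Myofibroblast (columns), with darker cells for more peaks. The 3 darkest cells are Hk2 with 33, Epas1 with 26 and Ndrg1 with 25, all in CD34 SP.

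These calls rested on peaks of low score, as specific peaks of CD34 SP mostly are. The specific peaks of CD34 SP at the members had a median score percentile of 27.2, and 13 of the 164 (7.93%) lay above percentile 50, close to the values of 22.4 and 9.04% for the whole specific list, with 2 of the 33 at Hk2 and 1 of the 25 at Ndrg1. When only peaks above the median score of each list were kept and specificity was called again, CD34 SP had 0 called genes, beside 0.21% of all genes. MRISC then had Hk2 with 9 specific peaks, against 2 of CD34 SP and 1 each of CD138 and Myofibroblast, and Ndrg1 with 5, against 1, 1 and 1. Ndrg1 thus stood at the minimum of 5. Epas1 was then called for Myofibroblast with 7, against 0, 3 and 4 in MRISC, CD34 SP and CD138. No share of all genes is given beside these calls of MRISC and Myofibroblast, so they cannot be read against a background. In the 4 other alternatives tried, Hk2 and Ndrg1 were called for CD34 SP each time. Which population is credited with peaks at Hk2 and Ndrg1 thus depended on the score limit, while CD138 had 1 and Myofibroblast 1 at both genes above it and few below.

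The Cd34+Cd81+ cluster was taken as the nearest counterpart of the sorted MRISC, and no cluster was matched to CD34 SP. Set beside the single cells, Hk2 and Ndrg1 were higher in the Cd34+Cd81+ cluster, and their windows were more open in CD34 SP and MRISC than in CD138 and Myofibroblast. Hk2 also went the other way: it was highest in the inflamed cluster at 224.3 CPM and called higher in the Sdc1-high clusters, while CD138 had 1 specific peak at Hk2. In clusters 2 and 3, the other clusters with Cd34 above the mean, Hk2 had 64.6 and 120.8 CPM. Epas1 had 26 specific peaks in CD34 SP but 9 in MRISC, the fewest of any population. By coverage, however, MRISC came next to CD34 SP, with peaks over 7.70% and 15.9% of the Epas1 window. CD138 peaks covered 6.69% of it and Myofibroblast peaks 5.63%. The Epas1 transcript was at 23.4 CPM in the Cd34+Cd81+ cluster, 52.1 CPM in cluster 2 and 41.3 CPM in cluster 3. Hk1 had the most specific peaks in Myofibroblast, 15 against 10 in MRISC, but peaks covered its window about equally, 5.04% in Myofibroblast and 5.03% in MRISC. Among the 6 large clusters its transcript was highest in contractile cells, where that of Hk2 was lowest. Slc2a1 was called for MRISC in chromatin, with 11 specific peaks against 5 of Myofibroblast, a call lost with lists of equal length. Its transcript was highest in the contractile cluster, at 28.8 CPM against 8.42 CPM in the CD34+CD81+ cluster. The 2 assays came from mice of different sex and treatment, and no correlation between them was computed.

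The hypoxia response element core was common in the members' promoters. RefSeq promoter windows of 300 bases, from 250 before to 50 after each start, were found for 30 of the 33 genes, all but Slc2a3, Epas1 and Ndrg1. ACGTG on either strand was found in a window of 21 of the 30 (70%), against 23.6% of 16522 genes. With GCGTG counted as well, 27 of 30 had a match, against 53.5% of genes, and the palindrome CACGTG, which also belongs to E-box factors and contains ACGTG on both strands, was found in 6 of 30, against 9.18%. The members without ACGTG were Gpi1, Pfkl, Pfkp, Tpi1, Eno1, Eno2, Ldhb, Pdk1 and Pdk4. The median GC content of the members' windows was 62.2%, against 57% over all 20150 windows, and its part in the difference was not tested. A gene with several starts has several windows, and the members had 44 in all for 30 genes, beside 20150 for 16522 genes. More windows give a gene more places for a match, and the part of this in the difference was not tested.

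**Figure D5:**
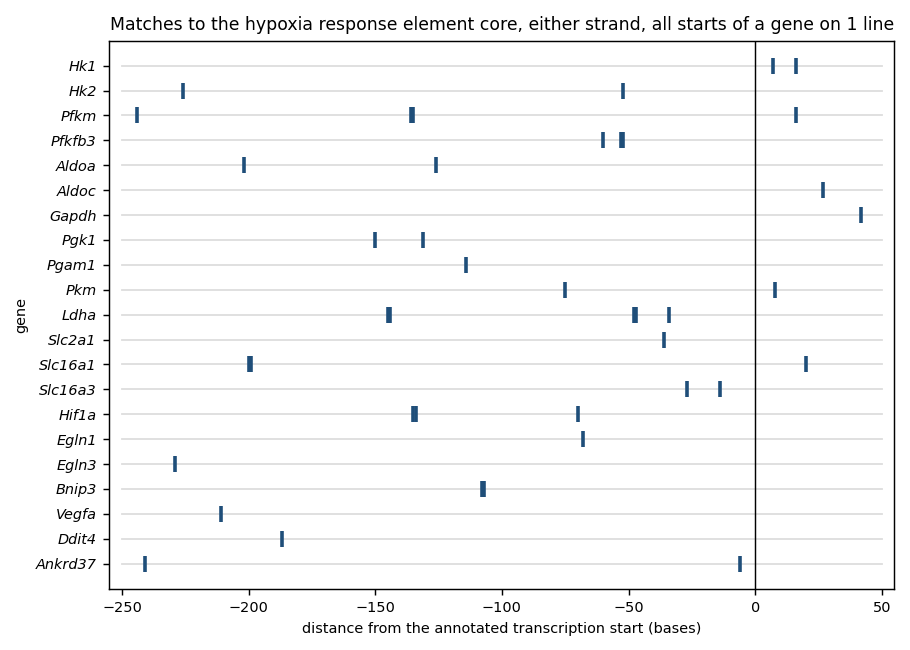
Positions of matches to the hypoxia response element core on either strand in the promoter windows of the 21 members that hold it, as distance in bases from the annotated start (horizontal axis, 0 at the start), with all starts of a gene on 1 line. Most matches lie upstream of the start, and Ldha has 5, of which 4 overlap in pairs and look like thick ticks.

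The word was also searched in the central 200 bases of peaks. For MRISC, 14.2% of the members' total peaks held it, against 10.9% of the whole list. For CD34 SP these shares were 16.6% against 10.8%, for CD138 19.1% against 10.4% and for Myofibroblast 22.8% against 10.4%. Promoter peaks are among these. Among the specific peaks of CD34 SP it was found in 14 of 164 (8.54%), against 9.5% of that list, and in 0 of the 33 at Hk2, which allows a share of up to 10.6% by the exact binomial limit. At Ndrg1 it was in 2 of 25 and at Epas1 in 4 of 26 (15.4%). The Hk2 peak that ranked next after those printed, downstream of the gene, held CACGTG outside its central 200 bases. The AP-1 word TGANTCA, searched after the values were seen, was found in 12 of these 164 (7.32%), against 12.5% of the list. Over all members, the specific peaks of CD34 SP thus held neither word at a higher share than their list. For ACGTG those at Epas1 did, with an exact binomial interval of 4.36% to 34.9%. With GCGTG counted as well, 34 of the 164 (20.7%, 14.8% to 27.7%) had a match, against 18.4% of the list. By gene these were 9 of 33 at Hk2 (27.3%, 13.3% to 45.5%), 7 of 26 at Epas1 (26.9%, 11.6% to 47.8%) and 4 of 25 at Ndrg1 (16%, 4.54% to 36.1%). Each of these intervals spans the share of the list. A word match is a description of the letters and says nothing of binding.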

How the data were processed

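The single-cell table was used as the authors deposited it: UMI counts per gene and barcode, with software version 3.0.0 per the file headers and 10x 3′ chemistry per the labels' protocols. The submitters' processing notes name Cell Ranger, Seurat, bcl2fastq, bedtools and mm10. Each ATAC population had 1 total and 1 specific peak list as the authors deposited them, with a score per peak. No source used here gives the peak caller or what the score means, so the score served only as a rank within its list.

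Of 11484 barcodes, 11376 passed a minimum of 500 genes and a ceiling of 10% mitochondrial UMIs. Counts were scaled to 10000 per cell, and clusters came from the Leiden method at resolution 0.5, on 15 neighbours in 30 principal components of 2000 variable genes, left unscaled (Python 3.11.15, scanpy 1.11.5, leidenalg 0.10.2, numpy 2.4.6, scipy 1.17.1, pandas 2.3.3, matplotlib 3.10.9). A cluster took a name with at least 3 markers of a type, if that type alone also had the most markers among the genes most raised in the cluster. The lamina propria and inflamed names rested on 3 markers each, the minimum. Cluster 7 passed 7 crypt-top and 3 pericyte markers. Several clustering settings were tried, and the number of clusters depends on them. Doublets were neither called nor removed. UMIs were pooled per cluster. Intervals of 95% were exact Poisson for levels, exact binomial for shares and exact conditional binomial for ratios, and cover counting error only. With 1 library there was no test. A level of 0 allows up to 3 counts. Free RNA was estimated from 5 markers in 546978 empty droplets.

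Peaks were assigned with GENCODE vM21 (GRCm38) gene bodies and 10 kb on both sides, checked against bedtools 2.31.1. Promoter sequences were RefSeq's (GRCm38.p6). The calling rules, interval counts and word search were tested on simulated data.

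Named genes were all 33 members plus the called genes of the other lists. One called gene of the other hypoxia list is not reported here by name. The members and lists were chosen with earlier results of these data known. Chosen after values were seen were the search for TGANTCA, the word counts per gene, the printed peaks and promoters, the clusters of at least 1000 cells, the free-RNA estimate by the median marker, the clustering of scaled genes and the ratios relative to the median gene. The 12 bulk RNA samples were not analysed here.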

Additional observations from a re-analysis of the deposited data

How the results depend on the processing

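The 207 ratios recomputed under the alternatives, which cover only members called in the comparison concerned, kept their direction, some with little difference left, such as Vegfa at 1.01 and Hk2 at 1.12 by the UMIs of Cd34 and Cd81. Without the 5% of cells with most UMIs, the enzyme sum ratio was 1.07 for the Sdc1-high clusters and 1.37 for smooth muscle. At Leiden resolution 1.0 it was 0.803 for Cd34+Cd81+ and 1.20 for Sdc1-high, with 7 members higher in Sdc1-high, beside 5.17% of genes. Clustering without the members gave 7 higher and 1.22 for Sdc1-high, and scaled genes gave 2 higher. With free RNA subtracted, the highest over the lowest cluster was 1.88, cluster 3 being then the lowest, and the sum ratios 0.752 for Cd34+Cd81+, 1.06 for Sdc1-high and 1.38 for smooth muscle. At a threshold of 2-fold, Cd34+Cd81+ had 0 higher and 3 lower, beside 4.50% and 5.68% of all genes tested, Sdc1-high 1 higher, beside 1.78%, and smooth muscle 1 higher and 1 lower, beside 7.26% and 5.91%. With no minimum level, Cd34+Cd81+ had 5 higher and 12 lower of 33, beside 14.5% and 32.6% of all genes. Sdc1-high had 5 higher and 2 lower, beside 15.4% and 19.1%, and smooth muscle 8 higher and 7 lower, beside 15.9% and 33.5%. Cells with a Cd34 and a Cd81 UMI against cells with neither gave 1 higher and a sum ratio of 0.820. For specific peaks, MRISC had 0 called members with equal list lengths and 1 by the nearest start. CD34 SP had 0 above the median score. CD138 had 4 in windows of 50 kb, 1 above the median score, 1 with equal lists, 4 at an overlap of 50% and 4 by the nearest start. No share of all genes is given beside these counts of MRISC and CD138, so they cannot be read against a background. Apart from the construction of each alternative, the cause was not tested.

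Vegfa in Cd34+Cd81+ had ratios of 1.47 with the stricter cell filter, 1.08 at resolution 1.0 and 1.49 with scaled genes. No paired analysis was possible because each ATAC population has 1 list for both of its libraries and the single-cell data are 1 library, so no replicate could be left out either. One library, unknown ATAC depth, and different sex and treatment between the assays limit every comparison.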
